A study of Mus musculus with 8 samples.

Results

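Genes that serve germ cells and meiosis are kept silent in nearly all somatic cells, and the present account follows 37 of them in mouse embryonic stem cells (mESCs) with and without the histone chaperone HIRA. The 37 genes were chosen by name, for what they are known to do but with earlier results of these data known, and all 37 were found among the 24421 genes of the expression table. They comprise 4 RNA-binding regulators of germ cells, 13 genes of the piRNA pathway and of nuage, 6 genes of the synaptonemal complex and the chromosome axis, 3 meiotic cohesin subunits, 5 genes of meiotic recombination and 6 other germ cell proteins. Germline promoters are often rich in CpG dinucleotides, and in somatic cells they are held silent by DNA methylation and by a variant Polycomb complex that holds E2F6 and the MGA and MAX pair. MGA and MAX bind the E-box CACGTG, and E2F factors bind sequences with the core TCCCGC. piRNAs are small RNAs that guide PIWI proteins to transposon transcripts, and nuage is the granular cytoplasm of germ cells in which much of this pathway is found. Meiotic chromosomes are built on an axis of cohesin and HORMA domain proteins and are joined in pairs by the synaptonemal complex while recombination proceeds. mESCs are known to transcribe a number of these genes at low or moderate levels, and many are shut down when the cells differentiate.

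HIRA places H3.3, a variant of histone H3, into chromatin independently of replication. The poly(A) transcripts of 4 groups were sequenced in 2 libraries each: Hira-null (Clone 104) cultures of day 15, WT (W9.5) cultures of day 15, Hira-null mESCs of day 0 and WT mESCs of day 0. Both lines carry HA-tagged H3.3, day 0 cells were undifferentiated mESCs kept with LIF, and day 15 cells came from hanging-drop embryoid bodies without LIF, which the labels call cardiomyocytes. The Hira-null line is 1 clone set against 1 WT line, so that genotype and clone cannot be told apart, and each library came from a separate biological sample.

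The genotype labels were first checked on Hira itself (chr16:18877130-18970402, mm9), which shares exons with the gene model Gm15797. At day 0 Hira read 12.4 and 11.4 FPKM in Hira-null mESCs, against 27.3 and 28.5 FPKM in WT mESCs (log2 difference −1.17, standard error 0.10, adjusted p = 8.48e-05). At day 15 the check did not bear out the label, with 16.7 and 19.8 FPKM in libraries labelled Hira-null, against 15.8 and 15.5 FPKM in WT libraries (log2 difference 0.20, standard error 0.11, adjusted p = 0.167). The groups did not overlap at either day, but they lay in opposite order, and leaving out replicate 1 of those labelled Hira-null gave a day 15 difference of 0.32 (limma, adjusted p = 0.0497). Hira transcript was still read in Hira-null mESCs at day 0, which limits its level as a check of the labels. Every day 15 direction given here rests on those labels, and the libraries are therefore called labelled Hira-null. Summed over 13 cardiomyocyte markers, FPKM (fragments scaled by transcript length and library depth) was 171 and 167 in the day 15 libraries labelled Hira-null and 258 and 256 in the WT ones, against 34 and 26.9 in Hira-null mESCs and 26.9 and 26.3 in WT mESCs. Over 15 pluripotency markers it was 819 and 813 in the day 15 libraries labelled Hira-null and 656 and 619 in the WT ones, against 5809 and 5805 in Hira-null mESCs and 4226 and 4016 in WT mESCs. In such bulk cultures fewer cells of a type and less RNA per cell cannot be told apart. Between 6914211 and 11106644 fragments were assigned to genes per library, so that a low FPKM rests on few fragments.

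Promoters of the set had features in common. The genes were chosen by role, and silenced germline genes often have such promoters, so that these features are not independent of the choice. RefSeq promoters (build GRCm38.p6), read here over the 250 bases before the transcription start, were found for 30 of the 37 genes. The E-box CACGTG, which reads alike on both strands, lay in the promoters of 14 of the 30 (46.7%), against 6.86% of all 27025 genes with a promoter. Among genes with 10 or more CpG it lay in 13 of 24 members (54.2%), against 10.8% of all 10871. TCCCGC, searched on both strands, lay in 36.7% of the members' promoters, against 18.8% of all promoters. Among the CpG-rich ones it lay in 45.8% of the 24 members, against 39.7% of all. The members' promoters held a median of 16.5 CpG, against 6 in all promoters, and 24 of the 30 held 10 or more. No promoter entry was matched for Tex11, Spo11, Tdrd6, Tex15, Rnf17, Piwil2 and Dnd1. A match to these letters is a description of the sequence and not a measured binding site.

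Windows of these promoters are printed with the E-box in capitals, for 6 members whose transcripts were higher in Hira-null mESCs and for Syce2 and Tdrd1, which have the E-box and did not pass the test at day 0. Each runs 5′ to 3′ on the strand of its gene. Counted back from the start, the E-box of Mov10l1 began at position -246, that of Mael at -223, that of Stag3 at -170. Sycp3 holds 2, at -64 and -43, and its window spans both.
Sycp3 (chr10:88459503-88459569, plus strand): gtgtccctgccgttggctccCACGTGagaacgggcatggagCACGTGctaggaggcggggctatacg
Taf7l (chrX:134476514-134476559, minus strand): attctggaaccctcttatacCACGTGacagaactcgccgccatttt
Slc25a31 (chr3:40708758-40708803, plus strand): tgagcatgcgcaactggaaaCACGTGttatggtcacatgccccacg
Stag3 (chr5:138280319-138280364, plus strand): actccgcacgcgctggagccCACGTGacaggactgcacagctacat
Mov10l1 (chr15:88982744-88982773, plus strand): ccttCACGTGctaaccgccaacctctcgtg
Syce2 (chr8:84872150-84872195, plus strand): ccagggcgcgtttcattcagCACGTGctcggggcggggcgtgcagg
Tdrd1 (chr19:56826178-56826223, plus strand): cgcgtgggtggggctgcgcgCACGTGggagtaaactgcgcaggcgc
Mael (chr1:166238745-166238994, minus strand): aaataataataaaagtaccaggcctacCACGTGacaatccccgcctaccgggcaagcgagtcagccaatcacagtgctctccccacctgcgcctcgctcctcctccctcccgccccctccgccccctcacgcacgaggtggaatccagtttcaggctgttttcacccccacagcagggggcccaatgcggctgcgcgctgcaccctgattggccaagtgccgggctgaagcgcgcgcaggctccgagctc
The full 250 bases are shown for Mael, with the E-box near the distal end. The 250 bases before Dazl are shown for contrast, since Dazl was among the members with the largest day 0 differences and its promoter holds neither CACGTG nor TCCCGC.
Dazl (chr17:50293621-50293870, minus strand): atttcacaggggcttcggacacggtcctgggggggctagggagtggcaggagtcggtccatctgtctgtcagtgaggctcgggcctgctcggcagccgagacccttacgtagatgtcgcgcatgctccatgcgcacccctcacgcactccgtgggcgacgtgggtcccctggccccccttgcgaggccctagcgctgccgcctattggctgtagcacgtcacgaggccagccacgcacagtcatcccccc

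The question of the genotype comparisons was how the absence of HIRA bears on the expression of these genes, before and after differentiation. Values were taken as log2(FPKM + 1), and 33 of the 37 members were among the 14337 genes tested, which reached FPKM 1 in 2 or more of the 8 libraries. The other 4 members, Nanos2, Tdrd6, Spo11 and Msh4, stayed at or below 0.73 FPKM in every library, and Nanos2 was listed at 0 in all day 0 libraries. Of the members tested, Tdrd9 and Sycp2 reached FPKM 1 only in Hira-null mESCs. They entered the test through the group in which they are high, so counts that include them are not independent of that group. Differences are given on the log2(FPKM + 1) scale, which understates the change of genes at low FPKM, with p-values from limma adjusted after Benjamini-Hochberg over all genes tested. For members past the test, a lack of overlap between groups describes the same values and is no further support.

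In level the members fell into a high and a low state by day. Their summed FPKM was 60.0 and 60.3 in the day 15 libraries labelled Hira-null, 75.3 and 75.4 in the WT ones, 716 and 718 in Hira-null mESCs and 386 and 399 in WT mESCs. A mean FPKM of 10 or more was reached by 1 member in each genotype at day 15, by 20 members in Hira-null mESCs and by 12 in WT mESCs. The highest means were 88.9 FPKM in Hira-null mESCs, that of the cohesin subunit Stag3, and 77.2 FPKM in WT mESCs, that of Tex19.1.

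**Figure D1:**
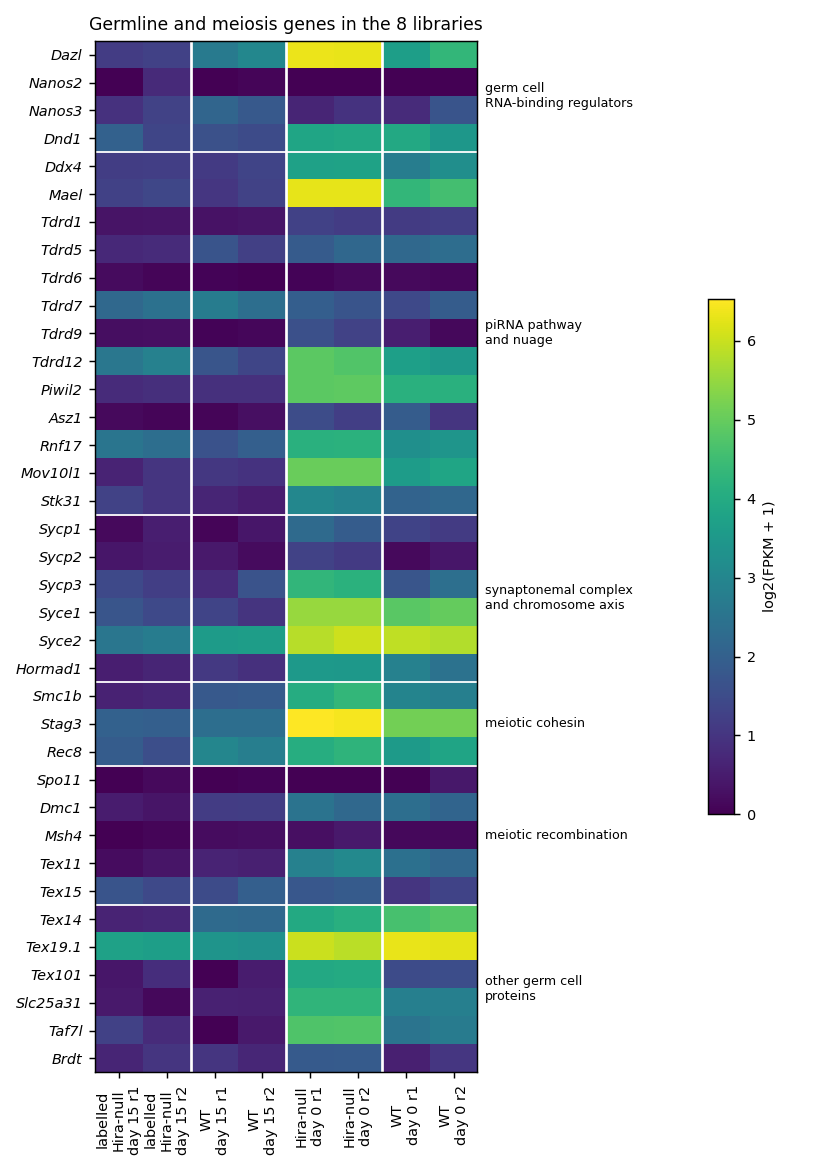
Level of each of the 37 genes (rows, ordered by role) in each of the 8 libraries (columns, r1 and r2 the replicates), as log2(FPKM + 1) by colour. Most rows are bright only in the 4 day 0 columns and brightest in those of Hira-null mESCs, with summed levels of 716 and 718 FPKM there against 386 and 399 FPKM in WT mESCs.

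At day 0, 23 of the 33 members tested were higher in Hira-null than in WT mESCs and 2 were lower, Tex14 and Tex19.1. The 23 include Tdrd9 and Sycp2, which the filter let in only through Hira-null mESCs. Over all genes tested 20.8% were called higher and 19.4% lower in this comparison, 2980 and 2785 genes, a split that became 3609 and 2207 when libraries were scaled to a common upper quartile while the members stayed at 23 and 2. The members' median difference was 0.82, with 28 of 33 above 0, against a median of 0.01 over all genes. Of the 23, 12 also differed by 1 or more on the log2(FPKM + 1) scale, and 16 were at least 2-fold higher in mean FPKM. Of all 14337 genes tested, 664 were called higher and 371 lower with a difference of 1 or more on that scale. Of all 25 calls, 18 held without any one library and the 7 others are named with their roles.

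Among the RNA-binding regulators, Dazl (chr17:50418719-50432924, mm9) stood apart. DAZL binds messenger RNAs and controls their translation in germ cells. It read 79.7 and 78.5 FPKM in Hira-null mESCs, against 11.7 and 19 FPKM in WT mESCs (log2 difference 2.33, standard error 0.20, adjusted p = 7.49e-05), so that both Hira-null libraries lay far above both WT libraries. Dnd1, which protects germ cell transcripts and shares exons with Wdr55 on the other strand, did not pass the test, at 13.3 and 14.1 FPKM in Hira-null mESCs, against 14.2 and 10.1 FPKM in WT mESCs. Nanos3, needed for the survival of primordial germ cells, was low and overlapped between the groups, at 0.598 and 0.935 FPKM in Hira-null mESCs, against 0.744 and 2.27 FPKM in WT mESCs.

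Of the 12 piRNA pathway and nuage genes tested, 8 were higher in Hira-null mESCs and the other 4 did not pass the test. Mael (chr1:168131516-168168875), a nuage protein needed for transposon silencing in the testis, read 76.9 and 77.7 FPKM in Hira-null mESCs, against 19.16 and 22.9 FPKM in WT mESCs (log2 difference 1.84, standard error 0.14, adjusted p = 3.95e-05). Mov10l1, the helicase that feeds precursor transcripts into piRNA production, read 31.9 and 32 FPKM in Hira-null mESCs, against 11.2 and 13.4 FPKM in WT mESCs (log2 difference 1.31, standard error 0.16, adjusted p = 3.37e-04). In both, the libraries of a genotype lay close together and the genotypes were well apart.
The Tudor domain proteins, which bind methylated arginines of PIWI proteins, were divided. Tdrd12 read 28.6 and 26 FPKM in Hira-null mESCs, against 12 and 10.1 FPKM in WT mESCs (log2 difference 1.23, standard error 0.16, adjusted p = 5.32e-04). Tdrd9, an RNA helicase with a Tudor domain, was low in all, at 2.0 and 1.44 FPKM in Hira-null mESCs, against 0.452 and 0.0984 FPKM in WT mESCs (log2 difference 1.10, standard error 0.19, adjusted p = 0.00233). Tdrd1, Tdrd5 and Tdrd7 did not pass the test, with differences of 0.05, −0.25 and 0.14 and standard errors of 0.15, 0.19 and 0.21.
Piwil2, one of the PIWI proteins themselves, was higher at 28.4 and 29.2 FPKM in Hira-null mESCs, against 16.8 and 16.7 FPKM in WT mESCs (log2 difference 0.74, standard error 0.12, adjusted p = 0.0015). The Tudor and RING protein gene Rnf17 read 16.6 and 17.1 FPKM in Hira-null mESCs, against 8.47 and 9.52 FPKM in WT mESCs (log2 difference 0.84, standard error 0.14, adjusted p = 0.00212), and the Tudor domain kinase gene Stk31 read 7.19 and 6.4 FPKM in Hira-null mESCs, against 3.23 and 3.51 FPKM in WT mESCs (log2 difference 0.83, standard error 0.16, adjusted p = 0.00387). Neither pair of groups overlapped. Ddx4, the germ cell RNA helicase also called vasa, read 12.3 and 12.7 FPKM in Hira-null mESCs, against 5.82 and 8.39 FPKM in WT mESCs (log2 difference 0.75, standard error 0.18, adjusted p = 0.00953), and its call was lost without replicate 2 of Hira-null at day 0 (adjusted p = 0.0581). Asz1, a mitochondrial membrane protein of nuage, overlapped between the genotypes at 1.84 and 1.31 FPKM in Hira-null mESCs, against 2.73 and 1.02 FPKM in WT mESCs.

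Within the synaptonemal complex and axis group 5 of 6 genes were higher in Hira-null mESCs. Sycp3 (chr10:87922314-87935981), a lateral element protein whose gene shares exons with Chpt1 on the other strand, read 18.8 and 17 FPKM in Hira-null mESCs, against 2.3 and 4.22 FPKM in WT mESCs (log2 difference 2.19, standard error 0.29, adjusted p = 6.06e-04). Hormad1, an axis protein, read 10.3 and 10.1 FPKM in Hira-null mESCs, against 6.3 and 4.5 FPKM in WT mESCs (log2 difference 0.82, standard error 0.17, adjusted p = 0.00555). Sycp2, the lateral element partner of SYCP3, read 1.46 and 1.16 FPKM in Hira-null mESCs, against 0.119 and 0.312 FPKM in WT mESCs (log2 difference 0.93, standard error 0.18, adjusted p = 0.00368), where the WT values rest on 5 and 15 fragments. In each of these the lower Hira-null library stood above the higher WT library.
Sycp1, the transverse filament that bridges the lateral elements, read 3.77 and 2.75 FPKM in Hira-null mESCs, against 1.5 and 1.21 FPKM in WT mESCs (log2 difference 0.85, standard error 0.21, adjusted p = 0.0113). Syce1 of the central element read 44.7 and 44.8 FPKM in Hira-null mESCs, against 27.9 and 30.9 FPKM in WT mESCs (log2 difference 0.59, standard error 0.15, adjusted p = 0.0127). Both calls were fragile. That of Sycp1 was lost without replicate 1 of Hira-null (adjusted p = 0.0984) and without replicate 2 of WT (adjusted p = 0.0501) at day 0, and that of Syce1 without replicate 1 or 2 of Hira-null or replicate 1 of WT (adjusted p = 0.0755, 0.0749 and 0.0584). Syce2, also of the central element, did not pass the test although it was among the more abundant members, at 56.1 and 65 FPKM in Hira-null mESCs, against 58.5 and 53.7 FPKM in WT mESCs.

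All 3 meiotic cohesin subunits were higher in Hira-null mESCs. Stag3 (chr5:138721468-138753621) read 91.5 and 86.2 FPKM in Hira-null mESCs, against 34 and 34.1 FPKM in WT mESCs (log2 difference 1.36, standard error 0.09, adjusted p = 2.54e-05). Smc1b, the meiotic counterpart of SMC1A, read 15.5 and 19.18 FPKM in Hira-null mESCs, against 6.69 and 6.04 FPKM in WT mESCs (log2 difference 1.31, standard error 0.15, adjusted p = 2.56e-04). Rec8, the meiotic kleisin, differed least, at 15.9 and 18.1 FPKM in Hira-null mESCs, against 10.8 and 13 FPKM in WT mESCs (log2 difference 0.48, standard error 0.16, adjusted p = 0.0378), and its call was lost without replicate 1 or 2 of Hira-null or replicate 1 of WT at day 0 (adjusted p = 0.0815, 0.207 and 0.16). Leaving out either WT library of day 15, which enters the fit only through the shared spread, also lost it (adjusted p = 0.0509 and 0.0504).

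Of the 3 recombination genes tested, the X-linked crossover gene Tex11 and Tex15 were higher. Tex11 read 6.28 and 7.41 FPKM in Hira-null mESCs, against 4.35 and 3.56 FPKM in WT mESCs (log2 difference 0.66, standard error 0.16, adjusted p = 0.0116), and Tex15 read 2.44 and 2.67 FPKM in Hira-null mESCs, against 1.0 and 1.51 FPKM in WT mESCs (log2 difference 0.67, standard error 0.20, adjusted p = 0.0293). The calls were lost without replicate 2 of Hira-null (adjusted p = 0.0906) or of WT (adjusted p = 0.0565) for Tex11, and without replicate 1 or 2 of Hira-null or replicate 1 of WT (adjusted p = 0.0961, 0.137 and 0.128) for Tex15. Dmc1, the meiotic strand exchange recombinase, overlapped between the genotypes at 4.59 and 3.59 FPKM in Hira-null mESCs, against 4.16 and 3.31 FPKM in WT mESCs.

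The other germ cell proteins held both the largest rise and both falls. Tex101 (chr7:25453031-25457069), a surface protein of male germ cells, read 14.4 and 14.8 FPKM in Hira-null mESCs, against 1.8 and 1.91 FPKM in WT mESCs (log2 difference 2.45, standard error 0.21, adjusted p = 6.88e-05). Taf7l (chrX:130994657-131011029), the X-linked germ cell relative of the general transcription factor TAF7, read 25.4 and 26.1 FPKM in Hira-null mESCs, against 4.7 and 5.57 FPKM in WT mESCs (log2 difference 2.13, standard error 0.20, adjusted p = 1.12e-04). Slc25a31, the testis ADP/ATP carrier of mitochondria, read 18.2 FPKM in both Hira-null libraries, against 6.05 and 6.06 FPKM in WT mESCs (log2 difference 1.45, standard error 0.15, adjusted p = 1.91e-04). These 3 genes showed little spread within a genotype and no overlap between them.
Brdt, the testis bromodomain protein, read 2.61 and 2.7 FPKM in Hira-null mESCs, against 0.487 and 1.04 FPKM in WT mESCs (log2 difference 1.07, standard error 0.21, adjusted p = 0.0040). Tex14, needed for the bridges between dividing germ cells, was lower in Hira-null mESCs, at 14.8 and 16.5 FPKM in Hira-null mESCs, against 23.6 and 26.5 FPKM in WT mESCs (log2 difference −0.65, standard error 0.12, adjusted p = 0.00374). Tex19.1, which is active in pluripotent cells and placenta as well as in germ cells, was also lower, at 63.2 and 56.8 FPKM in Hira-null mESCs, against 78.1 and 76.2 FPKM in WT mESCs (log2 difference −0.36, standard error 0.09, adjusted p = 0.00968), a call lost without replicate 2 of Hira-null at day 0 (adjusted p = 0.0983).

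**Figure D2:**
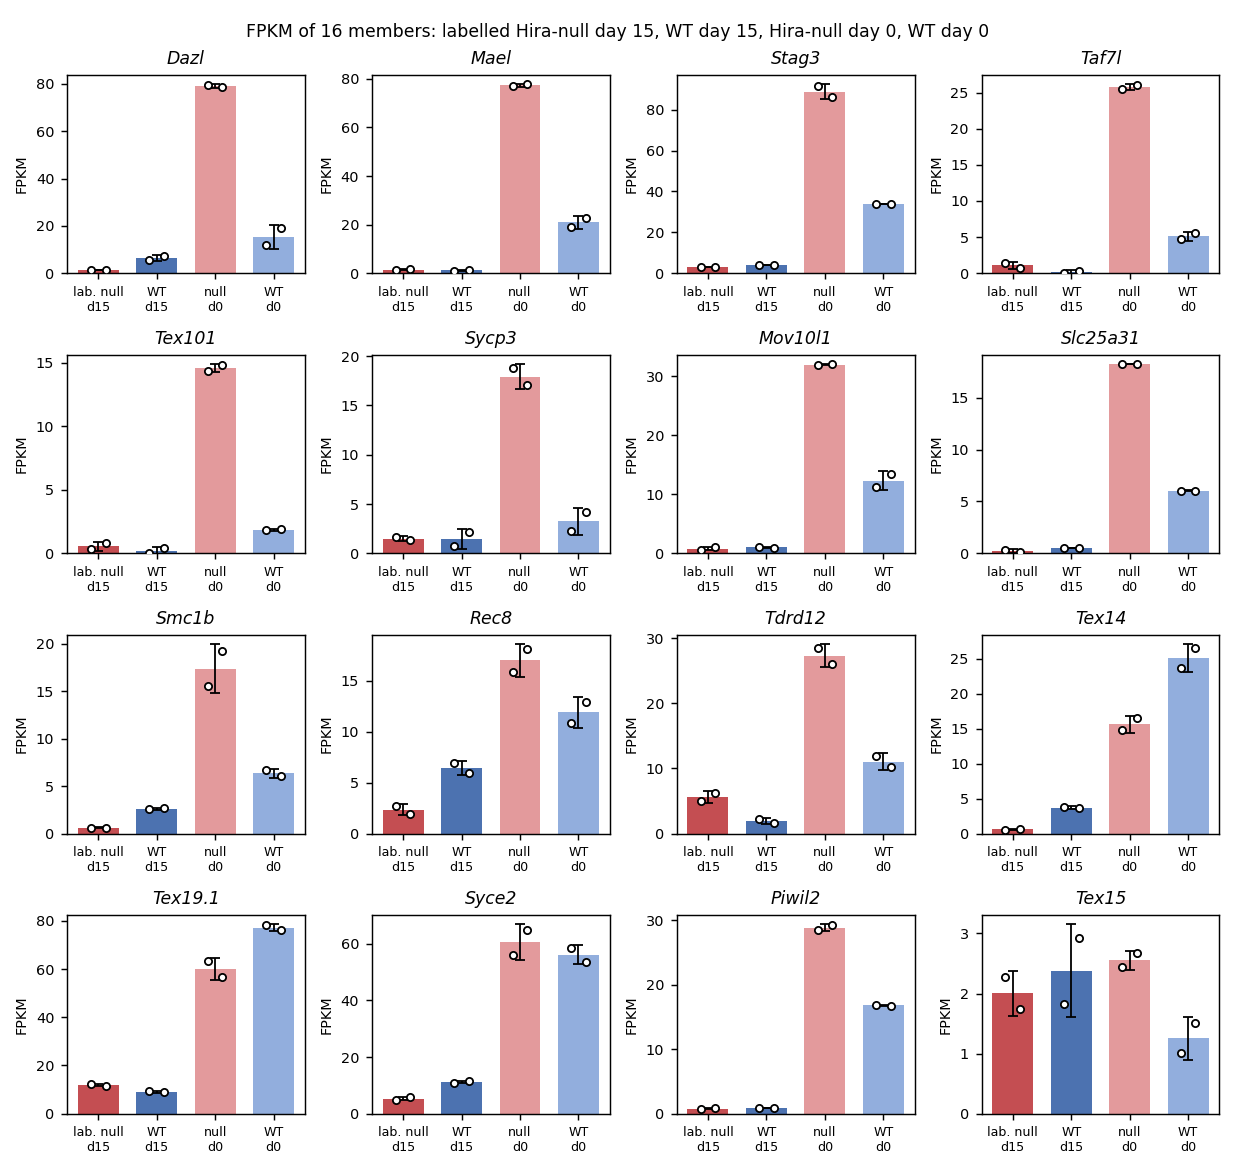
FPKM (vertical axis, from 0) of 16 members in the 4 groups, with bars for means, error bars for SD (n = 2) and points for single libraries; lab. null stands for labelled Hira-null, d15 and d0 for the days. Most panels are dominated by the Hira-null day 0 bar, as in Dazl (79.7 and 78.5 FPKM against 11.7 and 19.0 FPKM in WT), while Tex14 and Tex19.1 are higher in WT at day 0.

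When the promoters were set beside these values, the 14 members with CACGTG had a median day 0 difference of 1.08, and 12 of them were called higher. The 2 others were Syce2 and Tdrd1. Without CACGTG, 14 of 16 members were tested, 7 were called higher and 2 lower, and the median was 0.31. The ranges overlapped broadly, from 0.05 to 2.19 with the E-box and from −0.65 to 2.45 without it, and Tex101 and Dazl, both without it, had the largest differences of all. With TCCCGC, 6 of 11 members were higher and 2 lower, against 13 of 17 tested higher without it. Among those called higher were Tdrd9, with CACGTG, and Sycp2, without it, which the filter let in only through Hira-null mESCs. These counts describe the set and were not tested.

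**Figure D3:**
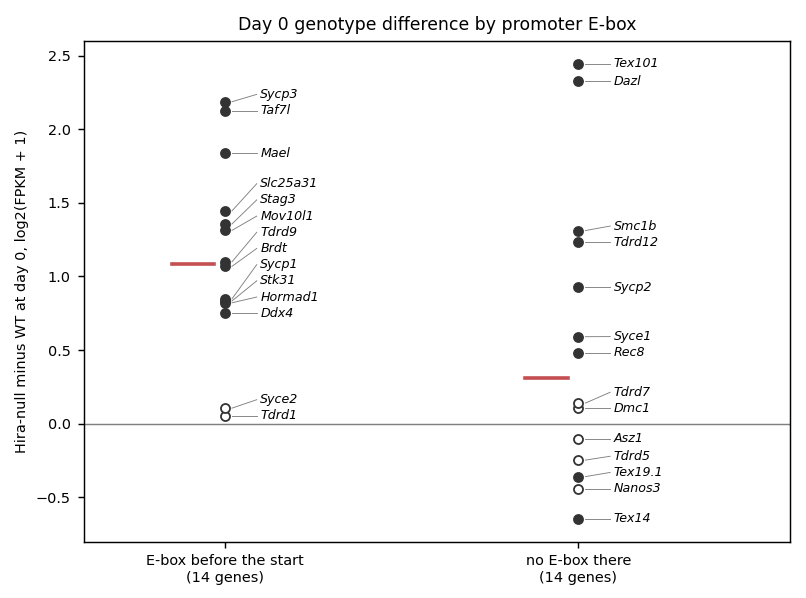
Day 0 difference (Hira-null minus WT, log2(FPKM + 1), vertical axis) of the 28 members with both a promoter entry and a test, split by the E-box in the 250 bases before the start. Filled points passed the test, open points did not, and red lines are medians, 1.08 with the E-box and 0.31 without it.

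At day 15 the same genes gave a mixed picture at low levels. Of the 33 members tested, 5 were higher in the libraries labelled Hira-null and 9 were lower than in WT, against 18.6% of all genes called higher and 18.8% called lower. The members' median difference was −0.04, and that of all genes 0.01. On the log2(FPKM + 1) scale only Tdrd12 among those higher, and Dazl, Tex14, Smc1b and Rec8 among those lower, differed by 1 or more. Of all 14337 genes tested, 685 were called higher and 585 lower by as much. In mean FPKM, without the pseudocount, 3 of the 5 members higher and 8 of the 9 lower differed at least 2-fold, with Stk31, Taf7l, Nanos3, Tdrd5, Syce2 and Dmc1 added. The member calls rest on few libraries. Without replicate 1 of WT at day 15 only 6 members passed, and without replicate 2 only 9. Both directions are drawn from labels that the Hira level did not bear out.

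Dazl was the member with the largest fall, at 1.25 and 1.42 FPKM in libraries labelled Hira-null, against 5.44 and 7.14 FPKM in WT libraries (log2 difference −1.63, standard error 0.21, adjusted p = 5.15e-04), the opposite order to day 0. Tex14 read 0.574 and 0.623 FPKM in libraries labelled Hira-null, against 3.82 and 3.58 FPKM in WT libraries (log2 difference −1.56, standard error 0.13, adjusted p = 8.06e-05), and was lower at both days. In both genes the 2 groups were well separated.
All 3 cohesin subunits were lower. Smc1b read 0.556 and 0.624 FPKM in libraries labelled Hira-null, against 2.55 and 2.66 FPKM in WT libraries (log2 difference −1.18, standard error 0.15, adjusted p = 5.46e-04) and Rec8 read 2.73 and 1.94 FPKM in libraries labelled Hira-null, against 6.92 and 5.94 FPKM in WT libraries (log2 difference −1.16, standard error 0.16, adjusted p = 8.47e-04). Stag3 differed little, at 3.05 and 2.91 FPKM in libraries labelled Hira-null, against 4.14 and 4.12 FPKM in WT libraries (log2 difference −0.37, standard error 0.09, adjusted p = 0.014), and its call was lost without replicate 1 or 2 of WT at day 15 (adjusted p = 0.0809 and 0.077). The central element gene Syce2 was lower at 4.9 and 5.74 FPKM in libraries labelled Hira-null, against 11 and 11.5 FPKM in WT libraries (log2 difference −0.96, standard error 0.11, adjusted p = 3.37e-04), with no overlap.
Dmc1, Tdrd5 and Nanos3 passed the test with less support. Dmc1 read 0.405 and 0.284 FPKM in libraries labelled Hira-null, against 1.24 and 1.27 FPKM in WT libraries (log2 difference −0.75, standard error 0.18, adjusted p = 0.0104), a call lost without replicate 1 or 2 of WT (adjusted p = 0.0827 and 0.0871). Tdrd5, the Tudor protein of chromatoid bodies, read 0.679 and 0.756 FPKM in libraries labelled Hira-null, against 2.23 and 1.38 FPKM in WT libraries (log2 difference −0.69, standard error 0.20, adjusted p = 0.0241), lost without replicate 1 or 2 of the libraries labelled Hira-null or replicate 1 of WT (adjusted p = 0.0774, 0.0602 and 0.213). Nanos3 read 0.922 and 1.44 FPKM in libraries labelled Hira-null, against 3.34 and 2.57 FPKM in WT libraries (log2 difference −0.86, standard error 0.30, adjusted p = 0.0488), which rests on 6 and 10 against 23 and 22 fragments, and the call was lost when any 1 of 6 libraries was left out (adjusted p 0.0512 to 0.302, from either replicate of Hira-null or WT at day 15, or either of Hira-null at day 0).

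Higher in the libraries labelled Hira-null were Tdrd12, Taf7l, Rnf17, Stk31 and Tex19.1. Tdrd12 read 4.98 and 6.29 FPKM in libraries labelled Hira-null, against 2.29 and 1.58 FPKM in WT libraries (log2 difference 1.18, standard error 0.17, adjusted p = 8.68e-04), a difference close to the one at day 0. Taf7l read 1.39 and 0.76 FPKM in libraries labelled Hira-null, against 0 and 0.353 FPKM in WT libraries (log2 difference 0.82, standard error 0.21, adjusted p = 0.014), on 24 and 14 against 0 and 8 fragments, and lost its call without replicate 1 of the libraries labelled Hira-null (adjusted p = 0.0769) or of WT (adjusted p = 0.142) at day 15. Rnf17 read 4.82 and 4.16 FPKM in libraries labelled Hira-null, against 2.14 and 2.92 FPKM in WT libraries (log2 difference 0.64, standard error 0.15, adjusted p = 0.00965), lost without replicate 1 of WT (adjusted p = 0.104).
Stk31 read 1.46 and 1.01 FPKM in libraries labelled Hira-null, against 0.59 and 0.448 FPKM in WT libraries (log2 difference 0.55, standard error 0.17, adjusted p = 0.0309), lost without replicate 1 labelled Hira-null or replicate 1 or 2 of WT (adjusted p = 0.132, 0.106 and 0.186). Tex19.1, the most abundant member at day 15 in the libraries labelled Hira-null, read 12.3 and 11.6 FPKM in libraries labelled Hira-null, against 9.34 and 8.83 FPKM in WT libraries (log2 difference 0.36, standard error 0.09, adjusted p = 0.0125), lost without replicate 1 or 2 of WT (adjusted p = 0.0613 and 0.102). The groups did not overlap for any of these 5 genes, which were picked by the test on the same libraries.
The 19 members that did not pass the test included Mael, Mov10l1, Slc25a31 and Sycp3, which had differed strongly at day 0. Mael read 1.38 and 1.63 FPKM in libraries labelled Hira-null, against 1.03 and 1.44 FPKM in WT libraries and Sycp3 1.7 and 1.31 FPKM in libraries labelled Hira-null, against 0.757 and 2.21 FPKM in WT libraries. Both pairs of groups overlapped. Mov10l1 read 0.582 and 1.01 FPKM in libraries labelled Hira-null, against 1.07 and 0.948 FPKM in WT libraries, and Slc25a31 0.372 and 0.0996 FPKM in libraries labelled Hira-null, against 0.503 and 0.485 FPKM in WT libraries, levels that rest on 2 to 45 fragments per library. Syce1 lay at 2.3 and 1.72 FPKM in libraries labelled Hira-null, against 1.52 and 0.992 FPKM in WT libraries (adjusted p = 0.0598).

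Set side by side over the libraries of both days, which the 2 genotype comparisons do not share, the 23 members higher at day 0 comprised 4 that were also higher at day 15 (Tdrd12, Rnf17, Stk31 and Taf7l), 4 that were lower there (Dazl, Smc1b, Stag3 and Rec8) and 15 that did not pass. Of the 2 lower at day 0, Tex14 was also lower at day 15 and Tex19.1 was higher. Nanos3, Tdrd5, Syce2 and Dmc1 were lower at day 15 alone among the members called. The members called at both days were thus divided in direction.

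**Figure D4:**
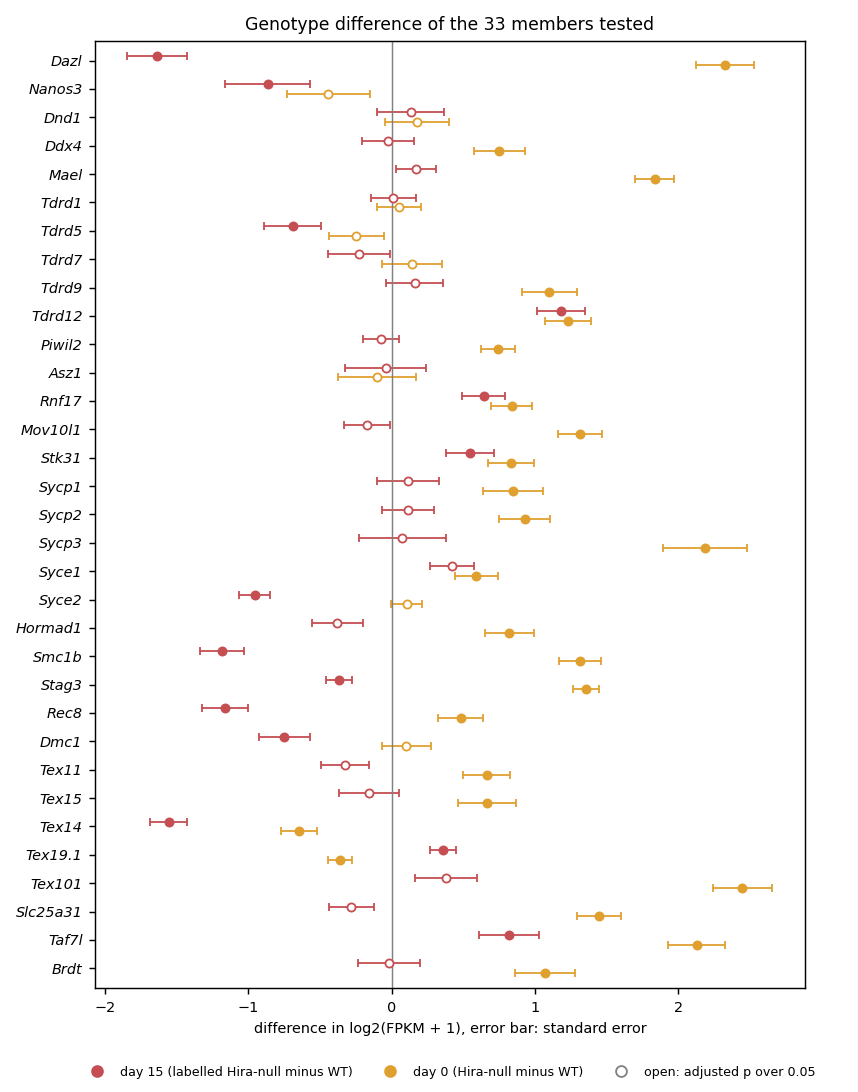
Genotype difference (horizontal axis, log2(FPKM + 1), Hira-null minus WT, error bars standard errors) of the 33 members tested at day 15 (red) and day 0 (orange), with open points where the adjusted p was over 0.05. Orange points lie mostly right of 0, with a median of 0.82, and red points on both sides of it, with a median of −0.04.

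Most members were lower at day 15 than at day 0 in both lines. Between the days 30 of 33 were lower and 0 higher in the line labelled Hira-null (limma; 1 higher at an unadjusted p under 0.05, and 1 by limma-voom on fragments, with a common upper quartile, with these 2 groups fitted alone or without either WT day 0 library), against 36.4% of all genes lower and 37.5% higher. In WT 27 were lower and 2 higher, against 33.4% and 36.1% of all genes. Scaling to a common upper quartile moved the median change of all genes by more than 0.1 in both lines. In the line labelled Hira-null it became 0.14, with 4594 genes lower and 5990 higher in place of 5215 and 5382. In WT it became 0.27, with 3558 lower and 6459 higher in place of 4786 and 5175, and 26 members lower and 3 higher. The median change was −2.44 in the line labelled Hira-null and −1.51 in WT, where those of all genes were 0.01 and 0.03. The falls reached 1 or more on the log2(FPKM + 1) scale in 28 members in the line labelled Hira-null and 22 in WT, and at least 2-fold in mean FPKM in 30 and 26. Of all 14337 genes tested, 2570 in the line labelled Hira-null and 1784 in WT were called lower by 1 or more on that scale.

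The deepest falls in the line labelled Hira-null were those of Dazl, Mael and Stag3. Dazl changed by −5.10 there and by −1.14 in WT (standard error 0.20 and 0.20, adjusted p = 1.02e-07 and 9.36e-04). Mael changed by −4.97 and −3.30 (standard error 0.14 and 0.14, adjusted p = 1.97e-08 and 2.23e-07), and Stag3 by −4.50 and −2.77 (standard error 0.09 and 0.09, adjusted p = 5.13e-09 and 7.85e-08). In WT the deepest was Syce1, at −3.76, which fell alike in the other line, at −3.93. The PIWI gene Piwil2 read 0.731 and 0.855 FPKM in the day 15 libraries labelled Hira-null, against 28.4 and 29.2 FPKM in Hira-null mESCs. In WT it read 0.886 FPKM in both day 15 libraries, against 16.8 and 16.7 FPKM in WT mESCs.

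Few members went against this. Tdrd7, a Tudor protein that the lens also uses, read 5.67 and 4.16 FPKM in WT at day 15 against 1.72 and 2.74 FPKM at day 0 (change 0.88, standard error 0.21, adjusted p = 0.00518), a call lost without replicate 1 of WT at day 15 (adjusted p = 0.0731). In the line labelled Hira-null it read 3.61 and 4.45 FPKM against 2.84 and 2.22 FPKM (adjusted p = 0.054). Tex15 was higher with time in WT, at 1.83 and 2.92 FPKM against 1.0 and 1.51 FPKM (adjusted p = 0.0339), but lost the call without replicate 2 of day 15 (adjusted p = 0.261) or replicate 1 of day 0 (adjusted p = 0.158). Nanos3 passed in neither line. In WT, Tdrd9, Sycp2 and Brdt, which were at or below 1.04 FPKM at both days, did not pass either. The WT falls of Sycp3 (−0.81) and Tdrd5 (−0.80) were lost without single libraries. For Sycp3 this held for 6 of them, among them replicate 1 of day 15 (adjusted p = 0.347) and replicate 2 of day 0 (adjusted p = 0.207), with adjusted p between 0.0532 and 0.0542 for both day 15 and both day 0 libraries of the other line. For Tdrd5 it was replicate 2 of WT at day 15 (adjusted p = 0.0629).

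**Figure D5:**
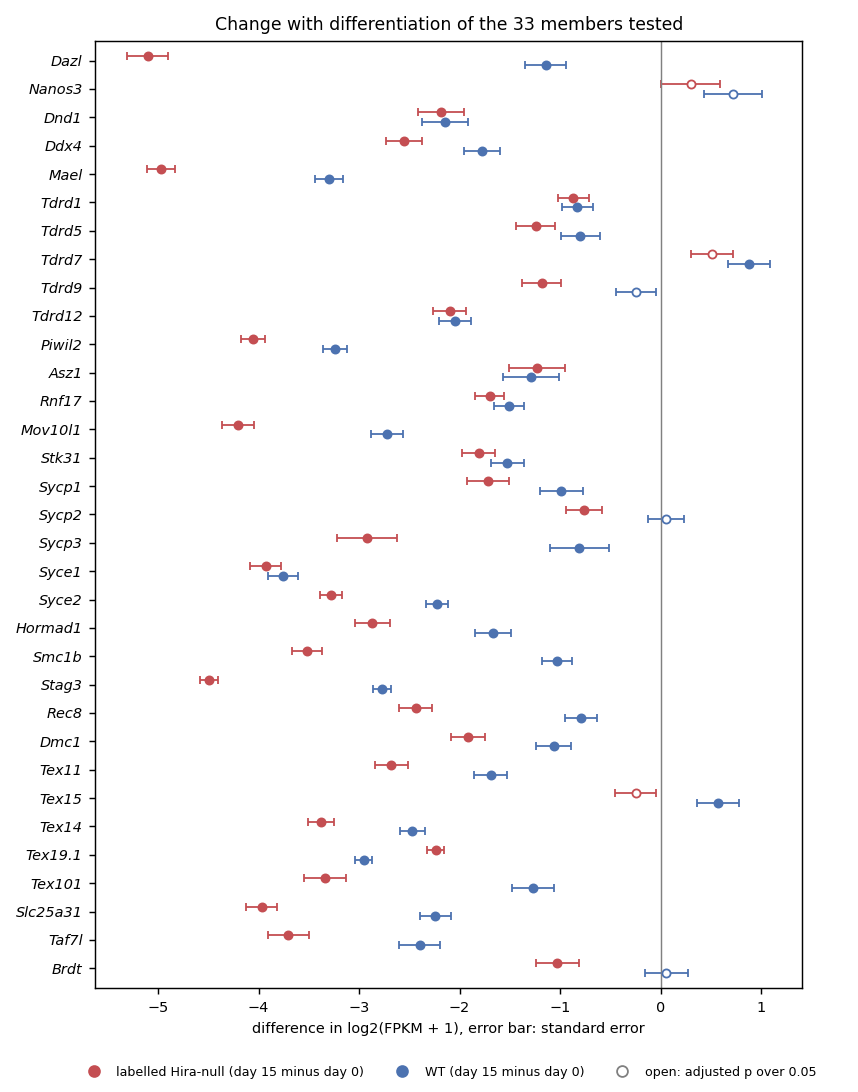
Change between the days (day 15 minus day 0, log2(FPKM + 1), horizontal axis, error bars standard errors) of the 33 members tested, in the line labelled Hira-null (red) and in WT (blue), with open points where the adjusted p was over 0.05. Nearly all points lie left of 0, and red points mostly further left than blue ones, with medians of −2.44 and −1.51.

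The genotype effects of the 2 days differed for 21 members, when day 0 was subtracted from day 15. The difference was below 0 for 20 and above 0 for Tex19.1 alone, against 17.7% and 17.5% of all genes tested. These 2533 and 2511 genes became 3167 and 1893 with a common upper quartile, and the members 21 and 1. The members were 14 and 1 with a pseudocount of 0.1, where all genes gave 2204 and 2113. By limma-voom on fragments they were 15 and 1, beside 2393 and 2368 of all genes. Where a member is low at day 15, the log2(FPKM + 1) scale understates its day 15 effect. The median difference in the main fit was −0.85 over the members and 0.02 over all genes. Dazl (−3.96), Smc1b (−2.49), Sycp3 (−2.11) and Tex101 (−2.07) had the largest differences. The member calls that did not differ between the days included Tdrd12 (−0.05, standard error 0.23) and Rnf17 (−0.19, standard error 0.21), higher in the Hira-null libraries at both days. The value of Taf7l depended on the scale, at −1.31 here, 0.10 with a pseudocount of 0.1 and 0.95 by limma-voom on fragments. Tex101, on 3 and 8 fragments in the day 15 libraries labelled Hira-null and 0 and 5 in the WT ones, kept its direction but lost its call with that pseudocount (−1.46, adjusted p = 0.285) and by limma-voom (−1.10, adjusted p = 0.502).

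Genes of the same pathways outside the set were then counted. They were listed from their known roles. Of 11 other piRNA pathway genes tested, 4 were higher in Hira-null mESCs and 1 was lower (median 0.26), beside 20.8% and 19.4% of all genes. Gtsf1, a partner of PIWI proteins, read 13.7 and 16.9 FPKM in Hira-null mESCs, against 3.58 and 3.11 FPKM in WT mESCs (log2 difference 1.90, standard error 0.16, adjusted p = 6.83e-05). Fkbp6, a co-chaperone of the pathway, read 30.5 and 28.9 FPKM in Hira-null mESCs, against 9.06 and 10.3 FPKM in WT mESCs (log2 difference 1.53, standard error 0.14, adjusted p = 1.06e-04). Gtsf1l, a relative of Gtsf1, read 17 and 25 FPKM in Hira-null mESCs, against 3.71 and 5.92 FPKM in WT mESCs (log2 difference 1.92, standard error 0.36, adjusted p = 0.00314). At day 15, where 18.6% of all genes were higher and 18.8% lower, the single call was that of Pld6, which was lower (log2 difference −0.65, standard error 0.21, adjusted p = 0.0372).
Of 23 other meiosis genes tested, of 32 listed, 5 were higher at day 0 and 4 lower, with a median of −0.16, where 20.8% of all genes were higher and 19.4% lower. The difference between this list and the members was not tested. Stra8, the gatekeeper of meiotic entry that retinoic acid induces, read 37.5 and 42.9 FPKM in Hira-null mESCs, against 6.16 and 8.22 FPKM in WT mESCs at day 0 (log2 difference 2.34, standard error 0.15, adjusted p = 2.47e-05) and 0.617 and 0.722 FPKM in libraries labelled Hira-null, against 4.3 and 4.34 FPKM in WT libraries at day 15 (log2 difference −1.67, standard error 0.16, adjusted p = 1.27e-04), the same reversal as in Dazl. The flagellar and meiotic protein gene Mns1 was lower at day 0 (log2 difference −1.37, standard error 0.15, adjusted p = 2.01e-04).

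Markers of primordial germ cells were mostly lower at day 15, where the members were divided. Beside the genotype counts of this paragraph, 20.8% of all genes tested were higher and 19.4% lower at day 0. At day 15 these shares were 18.6% and 18.8%. Of 8 markers, 3 of which are members (Dazl, Ddx4 and Nanos3), 7 were lower in the libraries labelled Hira-null than in WT and Ddx4 alone did not pass the test. At day 0, 3 were higher in Hira-null mESCs, 1 was lower and 4 did not pass (median 0.21). Their summed level was 17 and 14.5 FPKM in the libraries labelled Hira-null, against 63.4 and 57.9 FPKM in WT at day 15, and 178 and 173 FPKM in Hira-null mESCs, against 95.3 and 111 FPKM in WT mESCs. Dazl alone made up 79.7 and 78.5 FPKM of the sum in Hira-null mESCs, against 11.7 and 19.0 FPKM in WT mESCs. None of the 8 was at 0 in both libraries of a group. A wider list of 19 germ cell specification and gonocyte regulators, 17 of them tested, was divided. At day 15, 4 were higher in the libraries labelled Hira-null, 8 were lower and 5 did not pass (median −0.18). At day 0 these counts were 5, 2 and 10 (median 0.14). The summed level of that list was 669 and 644 FPKM in the day 15 libraries labelled Hira-null, against 531 and 505 FPKM in the WT ones. Most of each sum came from Dppa5a, Pou5f1 and Sox2, which are also counted among the pluripotency markers. At day 15 Dppa5a held 1694 and 1682 fragments in the libraries labelled Hira-null, against 1178 and 1320 in WT. For Pou5f1 these were 1782 and 2054 against 1172 and 1315. The higher sum is therefore not that of germ cell regulators alone. Kit, the receptor that germ cells share with blood and pigment cells, read 6.95 and 5.88 FPKM in libraries labelled Hira-null, against 27.5 and 25.9 FPKM in WT libraries at day 15 (log2 difference −1.90, standard error 0.10, adjusted p = 1.12e-05). Dppa3, which protects maternal marks in the early embryo, was lower at both days, with 0.823 and 0.257 FPKM in libraries labelled Hira-null, against 13 and 8.24 FPKM in WT libraries at day 15 (log2 difference −2.91, standard error 0.28, adjusted p = 1.56e-04) and 3.74 and 3.06 FPKM in Hira-null mESCs, against 11.6 and 18.7 FPKM in WT mESCs at day 0 (log2 difference −1.85, standard error 0.27, adjusted p = 0.00103). Pluripotency markers were counted as well. Of 15, 8 were higher and 1 lower in Hira-null mESCs at day 0, and 6 were higher and 6 lower at day 15. All 15 were lower at day 15 than at day 0 in both lines, beside 36.4% of all genes in the line labelled Hira-null and 33.4% in WT. Of 8 tested markers of 2-cell-like cells, a rare state of mESC cultures in which some germline genes are active, 3 were higher and 1 lower in Hira-null mESCs. The 8 differences ran from −0.74 to 1.17, with a median of 0.11. The 3 Zscan4 genes among the 8 did not pass, with differences of 0.17, −0.07 and 0.06. Zfp352 held 67 and 84 fragments in Hira-null mESCs, against 19 and 30 in WT mESCs, and Usp17la 102 and 157 against 59 and 67. The part of any of these cell types in the members' differences was not tested.

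Repressors of germline genes were listed as well. Of 18, 2 were higher and 5 lower in Hira-null mESCs, beside 20.8% and 19.4% of all genes, with differences between −0.47 and 0.54. Pcgf6, a subunit that defines the variant Polycomb complex, read 26.4 and 25.4 FPKM in Hira-null mESCs, against 37.2 and 35.5 FPKM in WT mESCs (log2 difference −0.47, standard error 0.11, adjusted p = 0.00883), and Max read 31.7 and 29.5 FPKM in Hira-null mESCs, against 35.6 and 45.9 FPKM in WT mESCs (log2 difference −0.39, standard error 0.11, adjusted p = 0.0246). Uhrf1, which brings maintenance methylation to new DNA, was higher, at 184 and 178 FPKM in Hira-null mESCs, against 128 and 120 FPKM in WT mESCs (log2 difference 0.54, standard error 0.08, adjusted p = 8.55e-04). E2f6 (−0.34) and Mga (−0.14) did not pass. At day 15, 4 were higher and 1 lower, beside 18.6% and 18.8% of all genes. The largest difference was that of Dnmt3l, the cofactor of new DNA methylation, at 26.5 and 25.5 FPKM in libraries labelled Hira-null, against 7.87 and 7.32 FPKM in WT libraries (log2 difference 1.65, standard error 0.07, adjusted p = 7.58e-06). DNA methylation and protein levels were not measured in these libraries.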

How the data were processed

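The authors sequenced poly(A)-captured RNA as stranded paired-end libraries, 2 for each of 4 groups, and aligned the reads to mm9. The submitters' processing notes name Bowtie 0.12.2 and DESeq2 1.6.3. The counting tool, its annotation and its use of the strand are not given in the sources used here. Genes that share exons are therefore uncertain. The authors deposited FPKM values for 24421 genes, of which 5287 were at 0 throughout. They also deposited tables of their own comparisons, with mean counts, fold changes and p-values, which were not used. ChIP-seq and qRT-PCR of the same cells were left out.

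Once gene length was allowed for, positive FPKM values were whole multiples of 1 fragment (100% within 0.1 of a fragment), and gave 6914211 to 11106644 fragments per library. Replicates differed by more than counting error, with a chi-square of 2.86 to 6.20 per degree of freedom. Depth covers counting error only, since fragments may not be independent molecules.

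The 14337 genes that reached FPKM 1 in 2 or more libraries were fitted as log2(FPKM + 1) with limma 3.58.1 in R 4.3.3 (4 group means, a trended empirical Bayes step, weights of 1.03 and 0.968 for libraries of day 0 and day 15, 4 residual degrees of freedom), with Benjamini-Hochberg adjustment at 0.05. The fragments recovered from FPKM entered a fit only in the limma-voom alternative, and DESeq2 was not run. Alternatives were a pseudocount of 0.1, no filter, upper-quartile scaling, equal weights, a replicate block, each pair of groups alone, limma-voom on fragments, a minimum difference of 1 on that scale and leaving out each library.

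The members and all other lists were chosen with earlier results of these data known. Members past the test in any comparison, or at a mean FPKM of 1 or more in a group, were to be described, with counts and up to 3 leading genes for other lists. Some further genes of these lists (Pld6, Max, Mga, E2f6, Zfp352, Usp17la, the Zscan4 genes) were named, and folds in mean FPKM counted, after the values were seen. Gene positions are from the mm9 annotation and promoters from RefSeq (GRCm38.p6), with no coordinates converted between builds.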

Additional observations from a re-analysis of the deposited data

Results flagged for a closer look

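For 21 members the genotype effect at day 15 differed from that at day 0 by the test of the difference itself (limma, adjusted p of 0.05 or less), with the values given here as the day 15 effect minus the day 0 effect on the log2(FPKM + 1) scale. Each rests on the day 15 libraries labelled Hira-null, in which Hira was not lower.

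The difference went with opposite directions at the 2 days for Dazl (−3.96) and the cohesin subunits Smc1b (−2.49), Stag3 (−1.72) and Rec8 (−1.64), which were higher in Hira-null mESCs but lower in the libraries of day 15 labelled Hira-null. Tex19.1 (0.72) had the opposite pattern, lower at day 0 and higher at day 15. Syce2 (−1.06) and Dmc1 (−0.85) passed the genotype test only at day 15, where both were lower. Tex14 (−0.91) was lower at both days, and more so at day 15.

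Higher in Hira-null mESCs and not past the test at day 15 were Sycp3 (−2.11), Tex101 (−2.07), Slc25a31 (−1.73), Mael (−1.67), Mov10l1 (−1.49), Hormad1 (−1.20), Brdt (−1.08), Tex11 (−0.99), Tdrd9 (−0.94), Piwil2 (−0.82), Sycp2 (−0.81) and Ddx4 (−0.78). Taf7l (−1.31) was higher at both days. Of these 21 calls, 12 held under every alternative tried other than the minimum difference of 1, which is left out of these counts. The call of Ddx4 was lost under 10 alternatives, that of Sycp2 under 8, Tdrd9 under 7, Brdt under 6 and Dmc1 under 5, in each for the most part when 1 library was left out. Tex101 lost its call under 2, Piwil2 and Tex11 under 1 each, and Taf7l changed its sign under 2.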

How the results depend on the processing

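Of 119 member results past the test, 91 were past it in the same direction under every alternative other than the minimum difference of 1. Among them were all 30 falls with time in the line labelled Hira-null. With that minimum difference on the log2(FPKM + 1) scale added, 5 members passed at day 15, 12 at day 0 and 13 in the difference between the days. Those 13 were all below 0. Of all 14337 genes, 1198 passed below 0 and 780 above it in that last comparison. For the change with time 22 members passed in WT and 28 in the line labelled Hira-null. Leaving out single libraries gave 6 to 14 members at day 15 (6 without WT day 15 replicate 1 and 9 without WT day 15 replicate 2), 19 to 25 at day 0, 27 to 29 for the change in WT, 30 to 31 for that in the line labelled Hira-null and 15 to 20 for the difference between the days. Without single libraries the Hira difference ran between 0.0861 and 0.321 at day 15, where it passed the test at 0.321 without replicate 1 of the libraries labelled Hira-null, and between −1.22 and −1.11 at day 0. The difference between the days for Taf7l, −1.31, turned to 0.10 with a pseudocount of 0.1 and to 0.95 by limma-voom on fragments, where its WT day 15 libraries hold 0 and 8 fragments. The cause of the other losses was not tested.

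Same-numbered replicates showed no strong shared deviation over all genes tested, with correlations between −0.10 and 0.05. This cannot show whether the samples were paired by experiment. With the replicate block 13 members passed at day 15, 25 at day 0, 30 for each change with time and 20 for the difference between the days, and the block ended 2 calls, Stk31 at day 15 (adjusted p = 0.0513) and Sycp2 in the difference between the days (adjusted p = 0.0562). Fitting pairs of groups alone cannot give the difference between the days. Depth limits the low members most: below about 1 FPKM a library holds few fragments, and with 2 libraries a group no exact test of 1 gene could pass 0.05.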
